A study of Homo sapiens with 14 samples.

Results

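The transcripts described here are those of the 4 tissue inhibitors of metalloproteinases (TIMP1, TIMP2, TIMP3 and TIMP4) and of 4 matrix metalloproteinases (MMP2, MMP9, MMP14 and MMP15). They were taken by gene symbol from a table of 26485 genes. The 8 were chosen with earlier results of these data known, so the choice was not blind to their values. Messenger RNA was sequenced from WA01 cells, an established human embryonic stem cell line also known as H1, and from cultures of the same line driven towards neural crest, the migratory embryonic population that gives rise to facial skeleton, peripheral neurons and pigment cells. There were 7 groups of 2 libraries. The hESC group is the stem cells. The other 6 groups were collected on day 5 of induction: low Wnt received 3 µM CHIR99021 and high Wnt 10 µM over hours 0 to 72, CHIR99021 being an inhibitor of the kinase GSK3 that turns on Wnt signaling. Each dose was given alone, with 10 µM SB431542 (SB4), a kinase inhibitor that silences the receptors upstream of SMAD2 and SMAD3, or with recombinant human TGF-beta 1 (TGFB) at 5 ng/µL, the unit in the labels, over hours 0 to 120. All libraries thus come from 1 cell line, and the labels do not say whether libraries of a group are separate cultures, so p-values measure only the spread between these libraries.

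Matrix metalloproteinases are zinc-dependent proteases that cut collagens, laminins, fibronectin and other proteins around cells, and they are made as inactive precursors whose prodomain must be removed. MMP14 and MMP15 are anchored in the plasma membrane, while MMP2 and MMP9 are secreted gelatinases. TIMPs inhibit metalloproteinases by binding the active site, though not every TIMP blocks every enzyme well. TIMP2 has a further role: bound to MMP14 at the cell surface it presents the MMP2 precursor for activation. Neural crest cells leave the neural tube through basement membrane, and both families are known from migrating crest. Transcript levels do not measure protein, activation or proteolysis, and in bulk samples fewer cells of a type and less RNA per cell cannot be told apart.

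Where the 8 genes sit matters for reading their counts. In the hg38 annotation used for counting, TIMP1 (chrX:47582291-47586791), TIMP3 (chr22:32800816-32863041) and TIMP4 (chr3:12153068-12159351) each lie inside a synapsin gene, SYN1, SYN3 and SYN2, on the opposite strand. TIMP2 (chr17:78852977-78925390) contains the gene CEP295NL on its own strand. None of these 4 pairs shares an exonic base (0 in each), and the libraries keep strand. MMP2 (chr16:55478830-55506691) and MMP15 (chr16:58025378-58046900) are on chromosome 16, MMP14 (chr14:22836533-22847599) on chromosome 14 and MMP9 (chr20:46008908-46016561) on chromosome 20.

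Promoter sequence from RefSeq (GRCh38.p14) was matched for 5 of the 8 genes, TIMP1, TIMP3, TIMP4, MMP14 and MMP15, and not for TIMP2, MMP2 and MMP9. The 250 bases before each RefSeq start were searched on both strands for TGANTCA (AP-1), CAGAC (the core of a SMAD binding element) and CTTTGAT (TCF/LEF). MMP14 is shown because SB4 lowered it at both CHIR99021 doses. The stretch ends at the last base before the counted gene, is on the plus strand, and holds none of the 3 motifs.
MMP14 upstream, chr14:22836335-22836532: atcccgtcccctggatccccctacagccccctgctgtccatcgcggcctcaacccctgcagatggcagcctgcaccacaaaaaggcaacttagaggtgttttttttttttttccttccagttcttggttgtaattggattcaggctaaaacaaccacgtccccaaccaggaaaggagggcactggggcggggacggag
TIMP3 and MMP15 are shown because TGFB moved them in opposite directions in low Wnt. Each holds 1 CAGAC on the minus strand (GTCTG in capitals), starting 84 bases before the RefSeq start of TIMP3 and 159 bases before that of MMP15. Both stretches are on the plus strand and lie within the counted gene model, which begins further upstream.
TIMP3 around the match, chr22:32801611-32801635: tctgccattgGTCTGagggggcggg
MMP15 around the match, chr16:58025585-58025609: gtttcctgccGTCTGggaagcgtaa
CAGAC was present in 2 of these 5 promoters and in 38.0% of the 35116 promoters in the RefSeq table. TGANTCA was in 6.57% and CTTTGAT in 2.26% of all promoters, and in 0 of the 5. A match is a description of letters and is not evidence of binding.

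Levels are given as CPM, the share of a library's counts that a gene takes, scaled between libraries by the trimmed mean of M-values (TMM), and comparisons as log2 fold changes ± standard error (SE) from edgeR's quasi-likelihood test. A gene is said to have risen or fallen, or to be called, where its Benjamini-Hochberg adjusted p over the 16149 genes tested was under 0.05. Library totals ran from 10879287 to 19106827 counts. All 8 genes were tested. TIMP4 and MMP9 each reached the filter's level in 6 of 14 libraries, both hESC libraries and 4 of the 12 others, so they entered the test partly through the group where they were high. The neural crest markers were present unevenly. In high Wnt SOX10 averaged 1.55 ± 0.154 CPM, TFAP2A 0.117 ± 0.0689 and FOXD3 0.186 ± 0.0284 and TFAP2B had no counts, while SNAI2 averaged 41.7 ± 6.58, SOX9 22.2 ± 2.59 and ETS1 56.0 ± 1.41 (SD, n = 2). In low Wnt SOX10 averaged 4.04 ± 0.308 CPM, TFAP2A 3.50 ± 0.472, FOXD3 0.516 ± 0.476, SNAI2 18.4 ± 0.828 and SOX9 17.7 ± 3.6. Low Wnt + TGFB held 6.34 ± 0.220 of SOX10, 15.5 ± 5.09 of TFAP2A and 8.55 ± 1.32 of FOXD3. In hESC SNAI2 averaged 0.868 ± 0.0282 CPM, SOX9 5.91 ± 0.437, FOXD3 36.5 ± 6.36 and ETS1 82.9 ± 13.3. Not every marker of the list of 8 is given for each group. Against hESC, low Wnt called 6 of the 8 (4 higher, 2 lower), beside 71.4% of all genes. High Wnt also called 6 (3 higher, 3 lower), beside 72.4%. TGFB in low Wnt raised 4 of the 8 and lowered 0, beside 26.0% of all genes called.

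Most of the 8 genes differed from hESC in both inductions, as did most genes. Against hESC, low Wnt called 7 of 8 (2 higher, 5 lower), where 71.4% of all tested genes were called (35.8% higher, 35.6% lower). High Wnt called 6 of 8 (3 higher, 3 lower), where 72.4% of all genes were called (36.3% higher, 36.1% lower). Both shares are near the background. Between the doses, 6 of 8 were called in high Wnt against low Wnt (3 higher, 3 lower), beside 38.5% of all genes (19.4% higher, 19.1% lower). The 2 not called between doses were TIMP1 and TIMP2.

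The additives called from 1 to 6 members, depending on the additive and the dose. SB4 called 2 of 8 in low Wnt, both lower, beside 11.2% of all genes (4.84% higher, 6.39% lower), and 4 of 8 in high Wnt, all lower, beside 21.5% (9.94% higher, 11.6% lower). TGFB called 6 of 8 in low Wnt (4 higher, 2 lower) beside 26.0% of all genes (13.7% higher, 12.2% lower). In high Wnt it called 1 of 8, lower, beside 7.25% (3.75% higher, 3.49% lower). These comparisons share the untreated libraries of their dose. TGFB compared directly with SB4 called 5 of 8 in low Wnt (3 higher, 2 lower) beside 35.5% (18.4% higher, 17.1% lower), and 5 of 8 in high Wnt (4 higher, 1 lower) beside 24.2% (13% higher, 11.2% lower). The effect of SB4 differed between doses, high minus low, for 1 of 8 genes, with a positive difference, beside 6.07% of all genes (2.71% positive, 3.36% negative). The effect of TGFB differed for 5 of 8 (2 positive, 3 negative) beside 11.8% (5.73% positive, 6.06% negative). The median log2 fold change over the 8 genes was 0.05 for TGFB in low Wnt and -0.59 for SB4 in high Wnt, where the medians over all tested genes were -0.01 and 0.00.

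**Figure D1:**
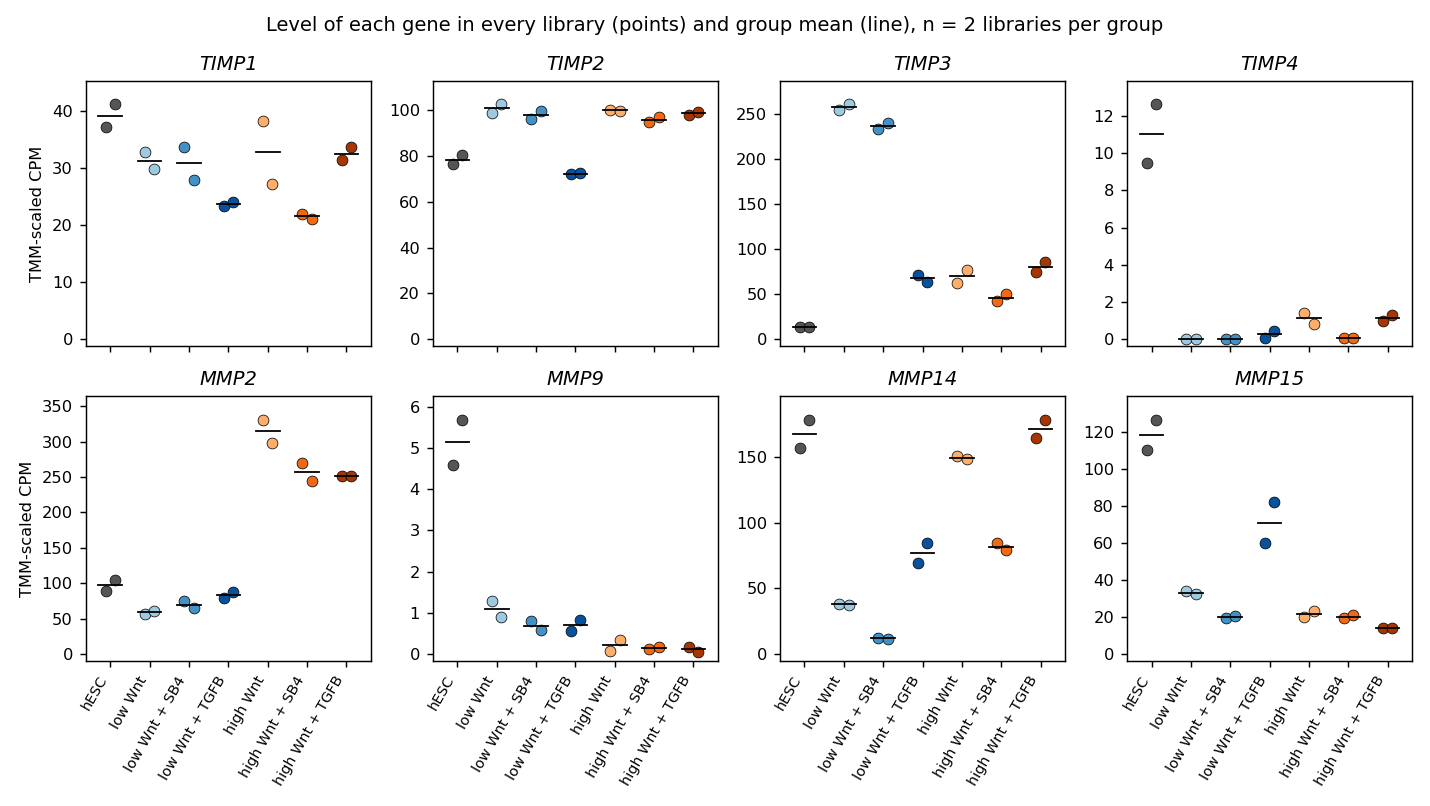
TMM-scaled CPM (linear axis, from 0) of each of the 8 genes in all 14 libraries; points are libraries and black lines the means of 2. TIMP3 peaked in low Wnt and low Wnt with SB4, MMP2 in the 3 high Wnt groups, and TIMP4, MMP9 and MMP15 in hESC.

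MMP14, the membrane-anchored collagenase that activates the MMP2 precursor, was high in stem cells and in high Wnt and low in low Wnt. The hESC libraries read 157 and 179 CPM, the low Wnt libraries 38.1 and 37.5, and the high Wnt libraries 151 and 149. The low Wnt libraries therefore stood apart from both other groups, while hESC and high Wnt lay next to each other without overlapping. MMP14 fell in low Wnt by 2.15 ± 0.112 on the log2 scale (adjusted p = 5.55e-11, edgeR) and was not called in high Wnt against hESC (-0.17 ± 0.105, adjusted p = 0.168). High Wnt exceeded low Wnt by 1.99 ± 0.112 (adjusted p = 3.14e-10).

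Within each dose MMP14 was ordered from blocker to ligand. With SB4, low Wnt libraries read 12.6 and 11.6 CPM and high Wnt libraries 84.4 and 79.4. With TGFB, low Wnt libraries read 69.5 and 84.8 CPM and high Wnt libraries 165 and 178. No library of one of these groups overlapped the untreated libraries of its dose. SB4 lowered MMP14 at both doses, by a log2 change of -1.64 ± 0.123 in low Wnt (adjusted p = 2.21e-07) and -0.87 ± 0.107 in high Wnt (adjusted p = 2.64e-05). TGFB raised it in low Wnt by 1.03 ± 0.111 (adjusted p = 2.86e-06), while its value in high Wnt, 0.20 ± 0.105, was not called (adjusted p = 0.316, 95% interval -0.03 to 0.42). Both additive effects depended on the dose: the difference, high minus low, was 0.77 ± 0.162 for SB4 (adjusted p = 0.00696) and -0.84 ± 0.152 for TGFB (adjusted p = 0.00142). Without low Wnt + SB4 replicate 2 the SB4 difference was 0.71 and was not called (adjusted p = 0.0568). From TGFB to SB4, MMP14 spanned 2.68 ± 0.122 in low Wnt (adjusted p = 4.68e-11) and 1.07 ± 0.107 in high Wnt (adjusted p = 1.42e-06). In the order of its 7 group means, the steps between high Wnt + TGFB, hESC and high Wnt were not called, nor was that between high Wnt + SB4 and low Wnt + TGFB, and the remaining 3 steps were called.

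MMP15, the other membrane-type enzyme of the set, was below hESC in low Wnt as MMP14 was, but unlike MMP14 it was also below hESC in high Wnt. Stem cell libraries held 110.3 and 127 CPM, low Wnt 33.9 and 32.5, and high Wnt 19.9 and 23.2. Each of these 3 groups was separate from the others. MMP15 fell by 1.83 ± 0.138 in low Wnt (adjusted p = 4.76e-09) and fell by 2.46 ± 0.144 in high Wnt against hESC (adjusted p = 1.91e-10), and high Wnt was below low Wnt (log2 -0.62 ± 0.144, adjusted p = 0.00246). SB4 in low Wnt gave 19.6 and 20.6 CPM, and TGFB in low Wnt 60.2 and 82.0. The TGFB pair was the widest of the MMP15 groups, but both libraries lay above every low Wnt and SB4 library. SB4 lowered MMP15 there (-0.72 ± 0.142, adjusted p = 0.00296) and TGFB raised it by 1.1 ± 0.136 (adjusted p = 1.35e-05).

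In high Wnt MMP15 moved the other way with the ligand. SB4 left 19.4 and 20.9 CPM, overlapping the untreated libraries (-0.09 ± 0.148, adjusted p = 0.701, 95% interval -0.41 to 0.22). TGFB gave 14.2 in both libraries, below every other group, and MMP15 fell by 0.60 ± 0.155 (adjusted p = 0.0251). That call was lost without high Wnt replicate 2 (adjusted p = 0.201), without high Wnt + TGFB replicate 1 (0.135) and without high Wnt + TGFB replicate 2 (0.148). The TGFB effect differed between doses by -1.70 ± 0.206 (adjusted p = 3.13e-05), and that call held without each library in turn (-1.92 to -1.47). TGFB against SB4 came to 1.82 ± 0.141 in low Wnt (adjusted p = 2.68e-08) and to -0.50 ± 0.153 in high Wnt (adjusted p = 0.0232), the latter lost when any 1 of its 4 libraries was left out (adjusted p 0.0619 to 0.146).

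MMP2, the secreted gelatinase whose precursor MMP14 activates, was marked by the CHIR99021 dose. It read 88.6 and 105 CPM in hESC, 56.9 and 61.0 in low Wnt, and 331 and 298 in high Wnt. All 6 high Wnt libraries, with or without additive, lay between 245 and 331 CPM, and all other libraries at or below 105. MMP2 fell by 0.72 ± 0.113 in low Wnt (adjusted p = 2.64e-05) and rose by 1.70 ± 0.112 in high Wnt (adjusted p = 8.0e-10), which put high Wnt above low Wnt by 2.41 ± 0.115 (adjusted p = 3.81e-11). In low Wnt, SB4 gave 74.4 and 65.1 CPM (0.24 ± 0.112, adjusted p = 0.197) and TGFB 78.7 and 87.9, a rise of 0.50 ± 0.112 (adjusted p = 0.00329). In high Wnt, SB4 gave 269 and 245 CPM (-0.29 ± 0.107, adjusted p = 0.0641) and TGFB 252 in both libraries (-0.32 ± 0.108, adjusted p = 0.089). Neither pair overlapped the untreated high Wnt libraries, yet neither difference passed the threshold in the fit of all 14 libraries. Fitted without the hESC libraries, an alternative added after the data were seen, both were called (-0.30, adjusted p = 0.0310 for SB4, and -0.32, adjusted p = 0.0482 for TGFB). The effect of TGFB on MMP2 differed between doses by -0.82 ± 0.156 (adjusted p = 0.0020).

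MMP9, the other gelatinase, known from migrating and inflammatory cells, was scarce outside the stem cells. It held 62 and 67 counts in hESC (4.59 and 5.68 CPM), 21 and 15 in low Wnt (1.28 and 0.897 CPM), and 1 and 5 in high Wnt (0.0831 and 0.344 CPM). The groups did not overlap. MMP9 fell by 2.23 ± 0.382 in low Wnt (adjusted p = 6.31e-05) and fell by 4.47 ± 0.503 in high Wnt (adjusted p = 5.49e-07). High Wnt was lower than low Wnt (log2 -2.24 ± 0.580, adjusted p = 0.00556), a call that ended without high Wnt replicate 1 (-1.65, adjusted p = 0.0692). Counts with SB4 or TGFB ran from 8 to 14 in low Wnt and from 1 to 3 in high Wnt, and no additive comparison of MMP9 was called.

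TIMP3, the inhibitor that stays bound to matrix and also blocks several ADAM and ADAMTS proteases, had the widest range of the 3 abundant inhibitors. It read 13.02 and 13.57 CPM in hESC, 255 and 261 in low Wnt, and 62.0 and 77.1 in high Wnt. The low Wnt level was 19.4 times that of stem cells. TIMP3 rose by 4.28 ± 0.140 in low Wnt (adjusted p = 2.78e-13) and by 2.39 ± 0.138 in high Wnt (adjusted p = 1.57e-10), and high Wnt was below low Wnt (log2 -1.89 ± 0.120, adjusted p = 1.47e-09).

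The response of TIMP3 to TGFB differed between the doses. In low Wnt, SB4 left 234 and 240.3 CPM (-0.12 ± 0.114, adjusted p = 0.563, 95% interval -0.36 to 0.12), while TGFB gave 71.5 and 63.2. The TGFB libraries lay in the range of high Wnt without additive. TIMP3 fell there by 1.94 ± 0.120 (adjusted p = 7.53e-09). In high Wnt, SB4 gave 41.7 and 49.6 CPM, a log2 change of -0.61 ± 0.121 (adjusted p = 0.00192), and TGFB gave 74.5 and 85.6, which overlapped the untreated pair (0.20 ± 0.120, adjusted p = 0.371). The TGFB effect differed between doses by 2.14 ± 0.169 (adjusted p = 3.22e-07), and the SB4 effect was not called as different (-0.48 ± 0.166, adjusted p = 0.107). Against SB4, TGFB thus stood lower in low Wnt (-1.82 ± 0.119, adjusted p = 4.11e-09) and higher in high Wnt (0.81 ± 0.121, adjusted p = 9.54e-05). Among the 7 group means, the step from low Wnt to low Wnt + SB4 was not called, nor were those between high Wnt + TGFB, high Wnt and low Wnt + TGFB.

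**Figure D2:**
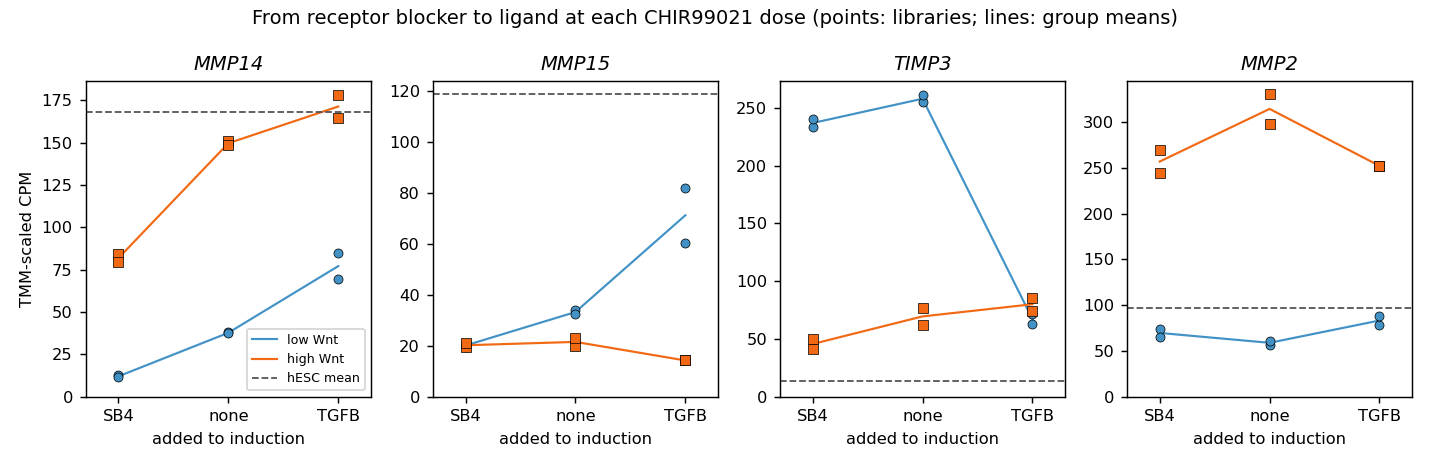
TMM-scaled CPM (linear axes from 0) of MMP14, MMP15, TIMP3 and MMP2 with SB4, with no additive and with TGFB at each dose; points are libraries, lines join group means and the dashed line is the hESC mean. MMP14 is ordered from SB4 to TGFB at both doses, whereas with TGFB in low Wnt MMP15 averaged 71.1 CPM and TIMP3 67.3 CPM.

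TIMP2, which both inhibits MMP2 and takes part in its activation, stayed within a narrow range. It read 76.4 and 80.7 CPM in hESC, 99.1 and 103 in low Wnt, and 100.2 and 99.97 in high Wnt. The induced libraries were above the stem cells by less than 1.5-fold, with log2 values of 0.36 ± 0.0863 in low Wnt (adjusted p = 0.00129) and 0.35 ± 0.0867 in high Wnt (adjusted p = 0.00168). TGFB in low Wnt gave 72.2 and 72.5 CPM, lower than every other library of the series, and TIMP2 fell by 0.48 ± 0.0860 (adjusted p = 0.000523). In the other 3 additive groups TIMP2 lay between 94.8 and 99.7 CPM and was not called. The TGFB effect differed between doses by 0.46 ± 0.122 (adjusted p = 0.0193), but this was lost without any 1 of the 8 libraries involved (adjusted p 0.0508 to 0.0820) and with no filter on low counts (0.0514).

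TIMP1, a secreted inhibitor of most metalloproteinases, was not called in any comparison among the groups without additive. Its libraries held 37.3 and 41.2 CPM in hESC, 32.9 and 29.8 in low Wnt, and 38.4 and 27.3 in high Wnt. The high Wnt pair overlapped both other groups, and low Wnt lay below hESC (-0.32 ± 0.147, adjusted p = 0.0589). Low Wnt against hESC was called with DESeq2 (adjusted p = 0.0486), with RLE scaling in edgeR (0.0344) and with a replicate block (0.0445). Without high Wnt replicate 1, high Wnt against hESC was -0.52 and was called (adjusted p = 0.00833), against -0.26 and 0.124 with all libraries. SB4 in high Wnt gave 22.0 and 21.1 CPM, a log2 change of -0.60 ± 0.151 (adjusted p = 0.00883). That call was lost without high Wnt replicate 1, the higher library (-0.34, adjusted p = 0.181), and without high Wnt + SB4 replicate 2 (adjusted p = 0.0657). TGFB in high Wnt gave 31.4 and 33.7 CPM, inside the range of the untreated pair. In low Wnt, SB4 gave 33.8 and 28.0 CPM (-0.02 ± 0.147, adjusted p = 0.949) and TGFB 23.4 and 24.1 (-0.40 ± 0.149, adjusted p = 0.0595). No step between neighbours in the order of the 7 TIMP1 means was called.

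TIMP4, an inhibitor better known from heart and other adult tissues, was a stem cell transcript here. It had 128 and 149 counts in hESC (9.47 and 12.6 CPM) and 0 in all 4 libraries of low Wnt and low Wnt + SB4. Low Wnt + TGFB had 1 and 7 counts, high Wnt 17 and 12, high Wnt + SB4 1 and 1, and high Wnt + TGFB 11 and 21. The 3 groups with more than 3 counts in every library were hESC, high Wnt and high Wnt + TGFB. TIMP4 was at least 121-fold lower in low Wnt than in hESC, taking 3 counts over the 2 libraries of the group for the zero (adjusted p = 2.68e-08), and in high Wnt it fell by 3.31 ± 0.407 (adjusted p = 3.4e-06). High Wnt was at least 12.1-fold higher than low Wnt (adjusted p = 0.000156). SB4 in high Wnt lowered it (adjusted p = 0.0018); untreated over SB4, the ratio was 18.4 with an exact 95% counting interval of 4.65 to 159. TGFB in low Wnt was at least 2.84-fold above untreated (adjusted p = 0.0242), a call that rests mainly on 7 counts in 1 library: without low Wnt + TGFB replicate 2 the adjusted p was 0.320, and without either low Wnt library 0.0994 and 0.1003. Intervals and floors cover counting error only.

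**Figure D3:**
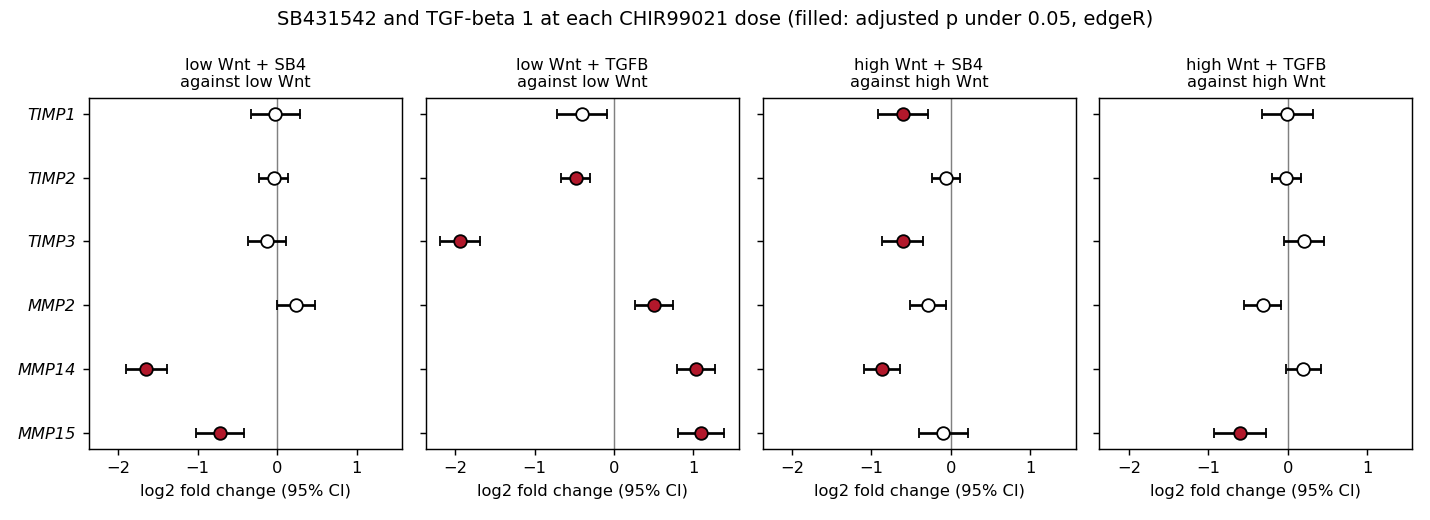
Log2 fold changes with 95% confidence intervals of the 6 genes with ample counts, for SB4 and TGFB at each CHIR99021 dose; filled points passed an adjusted p of 0.05 in edgeR. SB4 lowered MMP14 in both panels, and the TGFB panels differ, with 5 filled points in low Wnt and 1 in high Wnt.

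To compare genes with each other, levels were divided by exonic length (FPKM, the CPM per kilobase of exon). Summed over each family, the 4 inhibitors gave 109 ± 0.916 FPKM in low Wnt, 73.5 ± 5.30 in hESC and 76.6 ± 6.90 in high Wnt (SD, n = 2). The 4 proteases went the other way, with 32.8 ± 0.252 FPKM in low Wnt, 99.2 ± 10.0 in hESC and 123 ± 5.57 in high Wnt. The ratio of summed inhibitor to summed protease FPKM was 0.758 and 0.727 in the hESC libraries, 3.36 and 3.28 in low Wnt, and 0.643 and 0.603 in high Wnt. Both low Wnt libraries were above 3, and all hESC and high Wnt libraries below 1.

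The groups with additives lay further apart at the lower dose. With SB4 in low Wnt it was 4.02 and 4.26, with TGFB 1.12 and 0.909. In high Wnt it was 0.617 and 0.681 with SB4, and 0.684 and 0.705 with TGFB. The low Wnt + TGFB libraries thus lay far closer to hESC and high Wnt than to low Wnt. No test was made on these ratios, which sum few genes of unequal level and do not weigh which inhibitor blocks which enzyme.

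The make-up of each family shifted with it. TIMP3 made up 3.30% of inhibitor FPKM in hESC, 43.2% in low Wnt, 41.7% with SB4 and 21.1% with TGFB, and 16.7% in high Wnt. TIMP1 led in hESC with 58.3%. Among the proteases MMP14 led in hESC with 47.2%, and MMP2 in high Wnt with 62.0%. MMP15 was 26.9% of protease FPKM in hESC and 27.5% in low Wnt + TGFB, but 3.96% in high Wnt. MMP9 stayed at or under 2.21% in every group. The FPKM ratio of MMP14 to TIMP2, which form the surface complex that binds the MMP2 precursor, was 2.17 ± 0.110 in hESC, 0.381 ± 0.0139 in low Wnt and 1.52 ± 0.0136 in high Wnt. It was 0.126 ± 0.0109 with SB4 and 1.08 ± 0.149 with TGFB in low Wnt, and 0.869 ± 0.0526 and 1.77 ± 0.0829 in high Wnt.

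**Figure D4:**
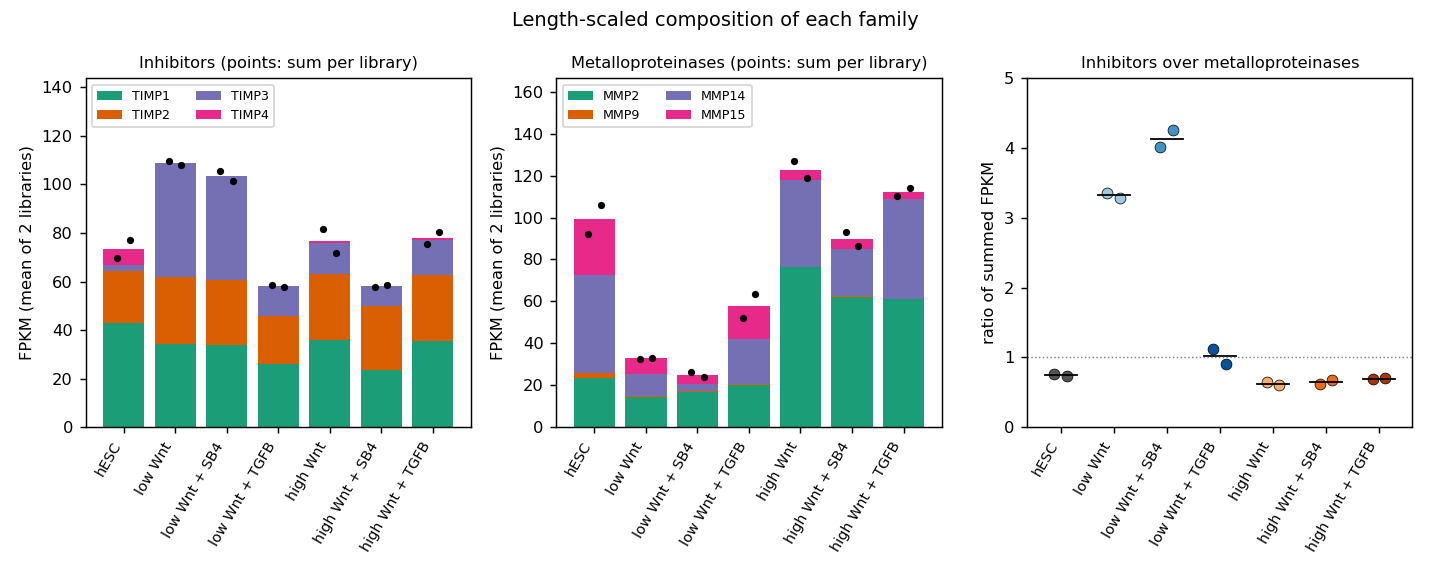
Left and middle, mean FPKM of each inhibitor and protease stacked by group (bars from 0; black points are the family sums of the 2 libraries); right, the ratio of the sums in each library with the group mean as a line and 1 dotted. The ratio is above 3 in low Wnt and low Wnt + SB4 and between 0.603 and 1.12 in all other libraries.

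Of 19 other matrix metalloproteinases, 7 passed the filter on low counts, and most of the rest had few or no counts in any group. MMP24 and MMP25, both membrane-bound, held 52.8 ± 9.89 and 52.4 ± 0.908 CPM in hESC and both fell in low Wnt (MMP24 -4.50 ± 0.257, adjusted p = 1.75e-10, and MMP25 -4.71 ± 0.230, adjusted p = 2.52e-11). TGFB in low Wnt raised 3 of the 7, among them MMP24 by 3.03 ± 0.256 (adjusted p = 1.88e-07), and lowered 0, beside 26.0% of all genes called. SB4 lowered 2 of 7 at each dose and raised 0, beside 11.2% of all genes called in low Wnt and 21.5% in high Wnt. In high Wnt TGFB called 1 of 7, lower, beside 7.25%. Over the 7 tested the median log2 fold change was 1.27 for TGFB and -1.22 for SB4 in low Wnt, and -0.62 and -0.56 in high Wnt, beside -0.01 to 0.00 over all tested genes. Between the doses, MMP17 fell (-1.41 ± 0.239, adjusted p = 0.000165) and MMP16 rose (0.51 ± 0.183, adjusted p = 0.0346) in high Wnt.

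Genes that activate, bind or clear these enzymes were called in part. Of 14 tested, 10 were higher and 2 lower in high Wnt than in low Wnt, beside 38.5% of all genes called, with PCSK5, a proprotein convertase, up by 3.26 ± 0.155 (adjusted p = 3.68e-11) and PLAU, the urokinase that generates plasmin, up by 2.46 ± 0.150 (adjusted p = 8.35e-10). SB4 lowered 6 of 14 and raised 0 in low Wnt, beside 11.2% of all genes called, and lowered 8 and raised 1 in high Wnt, beside 21.5%, where PLAU fell by 2.05 ± 0.146 (adjusted p = 7.14e-08). TGFB called 5 of 14 in low Wnt (3 higher, 2 lower), beside 26.0% of all genes called. There SERPINE2, a serine protease inhibitor, was up by 2.15 ± 0.159 (adjusted p = 4.09e-08) and PCSK6, another convertase, was down (-1.17 ± 0.154, adjusted p = 2.39e-05). In high Wnt TGFB called 2 of 14, PCSK6 and PLAU, both lower, beside 7.25%, although the median of the list was positive (0.16). The list's median was 0.99 between doses, -0.26 and -0.39 for SB4 in low and high Wnt, and 0.15 for TGFB in low Wnt.

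A further 2 genes of that list were named after their values were seen, for their place in the pathway. FURIN, the convertase that removes the prodomain of membrane-type enzymes, read 63.9 ± 1.45 CPM in hESC, 26.1 ± 1.92 in low Wnt, 16.03 ± 2.15 with SB4 and 48.1 ± 9.43 with TGFB. In high Wnt FURIN was 81.6 ± 3.69 CPM alone, 55.0 ± 1.66 with SB4 and 92.3 ± 3.99 with TGFB. FURIN fell with SB4 at both doses (-0.71, adjusted p = 0.00288, and -0.57, adjusted p = 0.00392), rose with TGFB in low Wnt (0.88, adjusted p = 8.99e-05) and was not called with TGFB in high Wnt (0.18, adjusted p = 0.469). RECK, a membrane-anchored inhibitor of MMPs outside the TIMP family, was 23.5 ± 1.58 CPM in low Wnt and 35.9 ± 1.70 in high Wnt, a rise of 0.61 ± 0.134 (adjusted p = 0.00164). With TGFB in low Wnt RECK was 17.8 ± 1.58 CPM and fell by 0.40 ± 0.138 (adjusted p = 0.0412). With TGFB in high Wnt RECK was higher than untreated, at 43.8 ± 4.22 CPM, and was not called. It was 16.1 ± 2.31 CPM in hESC, and with SB4 21.6 ± 0.867 in low Wnt and 29.4 ± 2.94 in high Wnt.

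Among ADAM and ADAMTS proteases, the wider targets of TIMP3, all 27 were tested. High Wnt against low Wnt called 16 (12 higher, 4 lower), beside 38.5% of all genes, with ADAMTS15 up by 2.11 ± 0.155 (adjusted p = 9.37e-09) and ADAMTS9 by 2.03 ± 0.145 (adjusted p = 6.64e-09). SB4 called 6 in low Wnt (3 higher, 3 lower), beside 11.2% of all genes, and 9 in high Wnt (2 higher, 7 lower), beside 21.5%, ADAMTS15 among the latter (-2.33 ± 0.157, adjusted p = 3.82e-08). TGFB called 9 in low Wnt (5 higher, 4 lower), near the 26.0% of all genes, and 5 in high Wnt (3 higher, 2 lower), beside 7.25%. Medians over the list lay between -0.17 and 0.21 in these 5 comparisons, with all-gene medians between -0.01 and 0.00.

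Matrix proteins that these enzymes cut were also read, 22 in number and all tested. For comparison, 38.5% of all genes were called between doses. SB4 called 11.2% of all genes in low Wnt and 21.5% in high Wnt, and TGFB 26.0% and 7.25%. High Wnt exceeded low Wnt in 14 and was below it in 4, NID1, a basement membrane linker, rising by 3.18 ± 0.103 (adjusted p = 3.81e-13) and COL3A1, a fibrillar collagen, by 2.88 ± 0.186 (adjusted p = 1.83e-09). SB4 lowered 6 and raised 1 in low Wnt, with LAMB1, a laminin chain, at -1.77 ± 0.0895 (adjusted p = 4.23e-09) and COL1A1, a fibrillar collagen chain, at -1.48 ± 0.0976 (adjusted p = 5.01e-08). In high Wnt it lowered 10 and raised 2, with COL1A1 at -2.63 ± 0.101 (adjusted p = 7.96e-11). TGFB in low Wnt raised 9 and lowered 5, with FN1, fibronectin, up by 1.68 ± 0.157 (adjusted p = 5.85e-07) and NID2, the other nidogen, down (-1.76 ± 0.106, adjusted p = 6.04e-09). In high Wnt TGFB raised 6 and lowered 3, with COL3A1 up by 1.34 ± 0.159 (adjusted p = 5.05e-05). The median of these 22 was 0.84 between doses, -0.08 and -0.21 for SB4 in low and high Wnt, and 0.27 and 0.02 for TGFB.

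Response genes of the TGF-beta and Wnt pathways were also read. The shares of all genes called were 11.2% and 21.5% for SB4 in low and high Wnt. They were 26.0% and 7.25% for TGFB, and 38.5% between doses. Of 9 such genes, SB4 lowered 3 in low Wnt, including SKIL, a SMAD repressor (-1.06 ± 0.217, adjusted p = 0.00394), and 7 in high Wnt, including the Nodal inhibitor LEFTY2 (-7.09 ± 0.249, adjusted p = 3.84e-11). TGFB raised 6 in low Wnt, including PMEPA1 (2.33 ± 0.257, adjusted p = 3.72e-06), and raised 3 and lowered 1 in high Wnt, with LEFTY2 up by 2.75 ± 0.162 (adjusted p = 6.86e-08). High Wnt was above low Wnt for 7 and below for 1, TGFBI rising by 6.02 ± 0.176 (adjusted p = 1.42e-13). The median of the 9 was 3.71 between doses, -0.50 and -1.23 for SB4 in low and high Wnt, and 1.57 and 0.26 for TGFB.

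The synapsin genes, which encode synaptic vesicle proteins, were read because 3 TIMPs lie inside them. SYN3, the host of TIMP3, held 4.52 ± 0.112 CPM in low Wnt and 16.8 ± 1.06 with TGFB, a rise of 1.89 ± 0.212 (adjusted p = 4.66e-06) where TIMP3 fell. In high Wnt SYN3 fell by 1.46 ± 0.247 with TGFB (adjusted p = 0.00122) where TIMP3 was not called. SYN1, the host of TIMP1, fell from 18.7 ± 1.80 CPM in hESC to 2.35 ± 0.0548 in low Wnt (-2.99, adjusted p = 1.42e-08), where TIMP1 was not called. SYN2, the host of TIMP4, was at 5.11 ± 1.99 CPM in low Wnt, where TIMP4 had no counts. Against hESC all 3 synapsin genes fell in low Wnt and in high Wnt, beside 71.4% and 72.4% of all genes called. In both comparisons TIMP4 fell too, while TIMP3 rose and TIMP1 was not called. CEP295NL averaged at most 0.167 CPM in any group and was not tested.

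Across the 14 libraries the closest profile to each member, by Pearson correlation of log2 CPM among genes reaching 10 CPM in some group, gave NID2 for TIMP3 (r = 0.981), BMP6 for MMP2 (r = 0.994), LAPTM4A for MMP14 (r = 0.987) and PCDH1 for MMP15 (r = 0.994). Next came NEK6 (0.979) and TGFBR3 (0.978) for TIMP3, PRICKLE1 (0.992) and TGFBI (0.990) for MMP2, and PGPEP1 (0.986) and DHRS3 (0.986) for MMP14. For MMP15 the next were POU5F1B (0.987) and TDGF1P3 (0.986), near-identical copies of the stem cell genes POU5F1 and TDGF1 whose counts are uncertain. TIMP4 was nearest HSPA5 (0.992), MMP9 ARHGEF19 (0.966), TIMP2 FUNDC2 (0.936) and TIMP1 DUSP7 (0.887). Among the members, the strongest correlations were 0.852 between MMP9 and MMP15, -0.840 between TIMP2 and MMP15, and -0.812 between TIMP3 and TIMP4. The 14 points share 7 groups and 1 scaling, so these values describe group patterns and carry no test.

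Markers of other cell states moved with several of these results. Of all tested genes, 71.4% were called in low Wnt against hESC and 38.5% between doses. In low Wnt 26.0% of all genes were called with TGFB and 11.2% with SB4. The 6 stem cell markers all fell in low Wnt against hESC, from a summed 5009 to 5166 CPM to 1352 to 1553, and all 6 rose with TGFB in low Wnt, to 2483 to 2810, while 5 of 6 fell with SB4, to 1033 to 1180. MMP14 and MMP15 moved the same way in these 3 comparisons, and the part of stem cell transcripts in that was not tested. In high Wnt, where MMP14 was at 149.8 ± 1.57 CPM, the stem cell sum was 725 to 849 CPM and NANOG had no counts. The endoderm markers, 4 of 4, also rose with TGFB in low Wnt, from 1.64 to 1.97 CPM up to 34.2 to 78.8, as did the 3 tested of 5 trophoblast and amnion markers, from 7.31 to 10.6 up to 22.5 to 37.4 with CGA at 0, and their part was not tested. The 8 neural crest markers summed to 128 to 137 CPM in hESC, 60.1 to 63.8 in low Wnt, 94.9 to 103 with TGFB and 121 to 138 in high Wnt. In high Wnt against low Wnt 3 of the 8 were higher and 3 lower, with a median of -0.53.

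Mesenchymal and mesodermal markers differed between the doses, as MMP2 did. Over all tested genes, 38.5% were called between doses, 21.5% with SB4 in high Wnt and 26.0% with TGFB in low Wnt. Of 7 smooth muscle and fibroblast markers tested, 5 rose and 2 fell in high Wnt against low Wnt, and 6 fell with SB4 in high Wnt. All 9 on the list summed to 1436 to 1573 CPM in high Wnt, 404 to 442 with SB4, 1993 to 2065 with TGFB and 441 to 495 in low Wnt. DCN, a defining fibroblast gene, averaged at most 0.0871 CPM in any group. The 6 paraxial mesoderm markers summed to 191 to 229 CPM in high Wnt, 452 to 528 with TGFB and 6.93 to 9.07 in low Wnt, and all 6 rose between doses. MMP2 was at 245 to 269 CPM with SB4 in high Wnt, where the smooth muscle and fibroblast sum was 404 to 442 CPM, beside 441 to 495 in low Wnt. With TGFB in high Wnt MMP2 was at 252 CPM, and the smooth muscle and fibroblast sum and the paraxial mesoderm sum were highest. The part of these markers in the MMP2 levels was not tested. The 6 neural progenitor markers summed to 697 to 804 CPM in low Wnt, 903 to 1006 with SB4 and 437 to 444 with TGFB. All 6 fell with TGFB in low Wnt, the same direction as TIMP3. In high Wnt they summed to 299 to 356 CPM, and to 501 to 569 with SB4. SB4 raised 4 of the 6 and lowered 0 at each dose, beside 11.2% of all genes called in low Wnt and 21.5% in high Wnt. With SB4, TIMP3 was not called in low Wnt and fell in high Wnt. The part of these markers in the TIMP3 results was not tested. The 8 endothelium and blood markers summed to 168 to 175 CPM in low Wnt. The sum was 113 to 114 CPM with SB4 in low Wnt and 141 to 158 with TGFB. It was 89.99 to 102 CPM in hESC and 21.2 to 22.4 in high Wnt. In low Wnt SPI1 and MPO had no counts, and TEK made up most of the sum. Of the 4 tested, 1 was higher and 1 lower in high Wnt than in low Wnt. The part of these markers in the TIMP3 result was not tested.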

How the data were processed

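The deposited values are raw counts per gene, made with featureCounts 2.0.0 (reverse-stranded fragments over exons of a UCSC hg38 annotation, per the file headers). HISAT2 2.2.0, SAMtools 1.10 and bcl2fastq are named in the submitters' processing notes. From these counts, edgeR 4.0.16 in R 4.3.3 (limma 3.58.1 installed) gave TMM scaling, the filter on low counts and 1 quasi-likelihood fit of all 14 libraries with 7 residual degrees of freedom and 11 comparisons, adjusted over 16149 genes. Library totals were 10879287 to 19106827 counts, so that 1 count equals 0.0524 to 0.0896 CPM. A fold against a group without counts is a bound, with 3 counts over the group's 2 libraries put in place of the zero. No pair of libraries within a group agreed within sampling noise. FPKM used the counted exon length. On data simulated for TGFB against none in low Wnt (15610 genes tested) the fit recovered 46.3% of 1.5-fold, 100% of 2-fold and 100% of 4-fold changes.

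The members and the gene lists were chosen with earlier results of these data known. From each list the text names the 2 genes with the largest called changes reaching 10 CPM in either group, or fewer, except where it says that a gene was chosen after its values were seen. The closest profiles are the 3 tested genes with the highest Pearson r, with a prior count of 2. Alternatives were DESeq2 1.42.0, other scalings, no filter, a log2 fold change of at least 1, a replicate block, only the groups compared, each library left out and, added after seeing the data, no hESC libraries. Protein sequences were not used here. The values of 1 gene that this rule would name are not reported here.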

Additional observations from a re-analysis of the deposited data

Results flagged for a closer look

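For 5 of the 8 genes an additive had a different effect at the 2 CHIR99021 doses, by edgeR's test of the difference itself (high Wnt minus low Wnt, log2 scale, 2 libraries per group, Benjamini-Hochberg adjusted over all tested genes). The SB4 difference was called for 1 of 8, beside 6.07% of all tested genes. The TGFB difference was called for 5 of 8, beside 11.8%. For SB4 the difference was 0.77 for MMP14 (adjusted p = 0.00696). For TGFB it was 2.14 for TIMP3 (adjusted p = 3.22e-07), -1.70 for MMP15 (adjusted p = 3.13e-05), -0.84 for MMP14 (adjusted p = 0.00142), -0.82 for MMP2 (adjusted p = 0.0020) and 0.46 for TIMP2 (adjusted p = 0.0193). For TGFB the differences of TIMP3, MMP15, MMP14 and MMP2 stayed called without each library in turn, while those of TIMP2 for TGFB and of MMP14 for SB4 did not.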

How the results depend on the processing

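Over 86 tested member values, 48 of them called, 1871 recomputations left 1750 with the same direction and call. Of the others 47 lost a call, 40 gained one and 34 changed sign, 0 of those with a call in either fit. With a log2 fold change of at least 1 required, the calls over all genes were 6550 and 6973 for low and high Wnt against hESC, 2774 between doses, 711 and 1654 for SB4 and TGFB in low Wnt, 962 and 428 in high Wnt, 2625 and 1451 for TGFB against SB4 in low and high Wnt, and 576 and 1064 for the dose differences of SB4 and TGFB. Members called under that rule were 1 for SB4 at each dose, 0 for TGFB in high Wnt, 2 for TGFB against SB4 in high Wnt, and 0 and 2 for the dose differences. For the SB4 dose difference, 2 members were called by DESeq2, 3 with no filter, 3 with only the groups compared and 2 without the hESC libraries, against 1 in the main result. TGFB in high Wnt called 2 without the hESC libraries. The causes of these shifts, beyond the fold requirement itself, were not tested.

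Leaving out 1 library at a time gave 784 to 2136 calls over all genes for SB4 in low Wnt, 2342 to 4621 for TGFB in low Wnt, 1944 to 3956 for SB4 and 538 to 1499 for TGFB in high Wnt, 4573 to 6615 between doses, 4048 to 6094 and 2477 to 4279 for TGFB against SB4 in low and high Wnt, and 662 to 1169 and 1253 to 2183 for the dose differences. Members called ranged from 3 to 5 for SB4 and 0 to 2 for TGFB in high Wnt, 3 to 5 for TGFB against SB4 in high Wnt, and 0 to 2 for the SB4 dose difference. Fold changes that changed sign, none of them called, ranged for high against low Wnt from -0.21 to 0.29 (TIMP1) and -0.0370 to 0.0142 (TIMP2), for SB4 in low Wnt from -0.16 to 0.11 (TIMP1), and for SB4 in high Wnt from -1.17 to 0.77 (MMP9) and -0.20 to 0.0157 (MMP15). For TGFB in high Wnt they ranged from -0.23 to 0.27 (TIMP1), -0.29 to 0.49 (TIMP4) and -1.73 to 0.38 (MMP9). For TGFB against SB4 they ranged from -0.24 to 0.30 (MMP9, low Wnt), -0.0845 to 0.0584 (MMP2, high Wnt) and -1.16 to 0.27 (MMP9, high Wnt), and for the dose differences from -0.0450 to 0.00724 (TIMP2, SB4), -0.50 to 1.44 (MMP9, SB4) and -1.13 to 0.98 (MMP9, TGFB). TGFB in high Wnt also changed sign for TIMP1 (0.0592 with library totals alone, 0.00235 with only the groups compared) and TIMP2 (0.0431 with library totals alone), as did the SB4 dose difference of TIMP2 (0.0325 with library totals alone).

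Replicate numbers did not pair the samples: deviations of same-numbered libraries correlated above 0.1 in 5 of 21 pairs of groups (-0.116 to 0.206). With the replicate number as a block, 2 members were called for the SB4 dose difference, MMP15 being added (0.64, adjusted p = 0.0399), no called member value was lost, TIMP1 was called with TGFB in low Wnt against none (adjusted p = 0.0464) and against SB4 (0.0486) and in low Wnt against hESC (0.0445; DESeq2 0.0486), and the TIMP1 value for TGFB in high Wnt was 0.00497. Depth limits TIMP4 and MMP9, with 348 and 225 counts over all 14 libraries.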
